A study of Mus musculus with 8 samples.

Results

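The synaptonemal complex and axis genes were followed in an RNA-immunoprecipitation (RIP) experiment with an antibody against DAZL, an RNA-binding protein of germ cells. The genes were Sycp1, Sycp2, Sycp3, Syce1, Syce2, Tex12, Hormad1 and Hormad2. All 8 had a probe on the array, and together they had 13 of the 41101 probes kept. Probes were found by the gene name in the scanner files, or by the probe's transcript where the files carried an older name, as they did for the 3 probes of Sycp2. Of the 13 probes, 11 were tested, because both arrays of 1 group or more showed them well above background, among 18263 probes tested in all. A probe of a Sycp1 pseudogene was not counted.

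RNA came from gonads of MCH strain mouse embryos at E14.5, the embryonic age at which XX germ cells are in early meiosis and XY germ cells are entering mitotic quiescence. For each sex, lots of 50 gonads were lysed, 5% of the cleared lysate was set aside as Input and the rest was immunoprecipitated with anti-DAZL antibody (IP). The 4 groups, XX Input, XX IP, XY Input and XY IP, had 2 arrays each, so whole gonads with germ cells and somatic cells were sampled and no group carried a mutation or a treatment. An IP with an unrelated antibody was not analysed here, and every recovery is therefore relative to Input. The labels number the replicates 1 and 2 without saying that they were separate lots, and the p-values measure the spread between these arrays, which may be technical.

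The synaptonemal complex is the protein zipper that joins homologous chromosomes in meiotic prophase. Along each chromosome lies an axis of cohesins and axis proteins, which becomes the lateral element of the complex and holds SYCP2 and SYCP3. HORMAD1 and HORMAD2 bind axes that have not yet paired and leave them as the zipper closes. SYCP1 forms the transverse filaments that bridge the paired axes, and SYCE1, SYCE2 and TEX12 belong to the central element in the middle, where SYCE2 and TEX12 assemble together into fibres. In mice these proteins are made in germ cells, in the fetal ovary and in the testis from the first wave of spermatogenesis onwards. DAZL binds mRNAs of germ cells, mainly in their 3′ parts. On a particular genetic background, XX germ cells that lack it fail to enter meiosis.

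Values are log2 signals from which the array's own 75th percentile was subtracted, so that 0 is the level of that percentile, and the signal of one probe is not compared with that of another. The arrays of the IPs, made from 1 ng of RNA, were dimmer than those of the Inputs, made from 50 ng: 6067 to 9468 probes were well above background on the IPs against 16712 to 20390 on the Inputs. The median probe that was not above background stood between -1.97 and -1.04 on the 4 IP arrays and between -5.56 and -4.40 on the 4 Input arrays. A probe without signal in either RNA therefore looked higher in the IP, and differences of probes that were not above background are given with that fact. Replicate arrays correlated with r = 0.995 (XX) and 0.996 (XY) for Input and r = 0.964 (XX) and 0.963 (XY) for IP, across 4205 probes that were above background on every array. Probes of Dazl itself, the mRNA of the precipitated protein, were higher in the IP than in Input by 2.69 and 3.09 in XX and by 2.06 and 2.93 in XY.

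**Figure D1:**
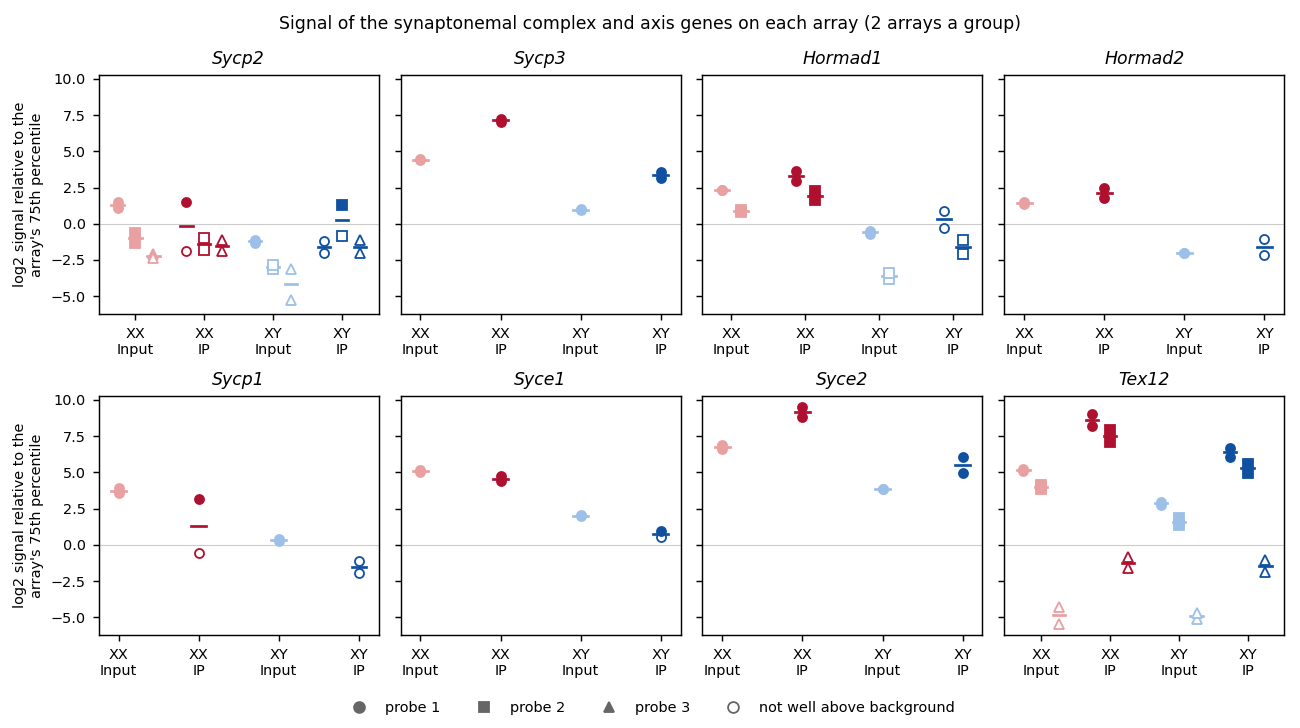
Log2 signal relative to the array's 75th percentile of every probe of the 8 genes on each of the 8 arrays. Each symbol is 1 array, short lines are the means of the 2 arrays of a group, symbol shapes are different probes of a gene, and open symbols are not well above background. XX Inputs lie above XY Inputs for each tested probe, and Sycp3, Syce2 and Tex12 are higher in the IP than in Input in both sexes.

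The first comparison asked at what level the genes stood in the starting RNA of the 2 sexes. They were higher in XX gonads: of 11 probes tested, 9 were higher in XX Input than in XY Input and 0 were lower, and these 9 covered 7 of the 8 genes, all but Sycp2. All 11 differences were positive. However, 1 probe of Hormad1, which is among the 9, and 1 of Sycp2 were at background on both XY Inputs. They were tested because both XX Inputs showed them, so the filter itself favoured their positive sign. Of all tested probes, 5.87% were higher and 6.1% lower in XX by the same rule, a Benjamini-Hochberg adjusted p under 0.05 from limma. The median difference of the 11 probes was 2.95 on the log2 scale, beside -0.0029 over all tested probes. XX arrays were on 1 slide and XY arrays on the other, so sex and slide cannot be told apart in this comparison. With the 50th percentile as the scale 5 probes passed as higher. In RNA of whole gonads, fewer cells of a type and less RNA per cell cannot be told apart either.

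Among the genes of the axis, Sycp3, whose protein shapes the lateral element, had signals of 4.38 and 4.44 on the XX Inputs and 0.95 and 1.00 on the XY Inputs. The 2 sexes were far apart and the replicates nearly equal. The difference was 3.44 ± 0.38 (SE), or 10.8-fold (limma, adjusted p = 0.00013). Its probe lies at chr10:87899402-87902492 on the plus strand of mm8, and this span of 3091 bases means that the probe crosses a stretch that is absent from the transcript.

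Hormad1, which marks axes before synapsis, had 2 probes. Probe 1 (chr3:95665577-95665636) gave 2.36 and 2.32 in XX Input against -0.73 and -0.48 in XY Input. The difference of 2.95 ± 0.47 (SE) was 7.71-fold (limma, adjusted p = 0.0014). Probe 2 (chr3:95670598-95670977) gave 0.78 and 0.95 in XX Input and was not above background on either XY Input, which makes it at least 13.6-fold higher in XX (limma, adjusted p = 5.9e-05). The same gene was thus measurable in XY gonads with one probe and at background with the other.

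Hormad2, the second HORMA domain protein of the axis, had signals of 1.52 and 1.34 in XX Input and -2.05 and -2.02 in XY Input with its probe at chr11:4246163-4246222. The sexes did not overlap, and the difference was 3.47 ± 0.46 (SE), or 11.1-fold (limma, adjusted p = 0.0004).

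Sycp2, the partner of Sycp3 in the lateral element, was the gene that did not pass. Probe 1 (chr2:178274703-178274756) had 1.47 and 1.12 in XX Input and -1.14 and -1.31 in XY Input. The arrays of the sexes did not overlap, but the difference of 2.52 ± 0.80 (SE) had an adjusted p of 0.064 (limma). The XX IP arrays, which share the fit, had an SD of 2.36 for this probe. With the 4 Input arrays alone in the fit it passed, with an adjusted p of 0.00094 (limma). It also passed with a block for the replicate number, with an adjusted p of 0.038 (limma). Probe 2 (chr2:178308931-178310295) had -0.66 and -1.34 in XX Input and was at background in XY Input. It was at least 3.72-fold higher in XX, with an adjusted p of 0.058 (limma). It too passed with the Input arrays alone in the fit, with an adjusted p of 0.0048 (limma), so that all 11 probes were higher there. That fit called many more probes of every kind. Of the 18263 tested, 4133 were higher and 3931 lower in XX, against 1072 and 1114 in the main fit. Probe 3 (chr2:178274938-178274997) was above background on 1 XX Input alone and was not tested.

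Sycp1, the transverse filament gene, had signals of 3.89 and 3.58 in XX Input and 0.41 and 0.23 in XY Input with its probe at chr3:102982535-102983206. The difference was 3.41 ± 0.87 (SE), or 10.7-fold (limma, adjusted p = 0.023). This call was lost under 6 of the other settings, with adjusted p-values above the limit and differences between 2.71 and 3.58.

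The central element genes were above background on all 4 Inputs. Syce1 (chr7:140628674-140628733) had 5.16 and 5.05 in XX Input and 2.04 and 1.98 in XY Input, a difference of 3.10 ± 0.39 (SE) or 8.55-fold (limma, adjusted p = 0.00027). Syce2 (chr8:87777339-87777398) had 6.58 and 6.86 in XX Input and 3.83 and 3.88 in XY Input, a difference of 2.87 ± 0.46 (SE) or 7.30-fold (limma, adjusted p = 0.0015). Tex12 had 2 probes whose positions lie next to each other on the minus strand, so they do not measure the gene independently. Probe 1 (chr9:50309552-50309611) had 5.08 and 5.24 in XX Input and 2.78 and 2.99 in XY Input, a difference of 2.28 ± 0.43 (SE) or 4.86-fold (limma, adjusted p = 0.004). Probe 2 (chr9:50309650-50309709) had 3.88 and 4.15 against 1.34 and 1.84, a difference of 2.42 ± 0.44 (SE) or 5.36-fold (limma, adjusted p = 0.0033). A further probe named Tex12 (chr9:50314952-50315011) lies in the opposite orientation, on the plus strand, and was at background on all 8 arrays.

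**Figure D2:**
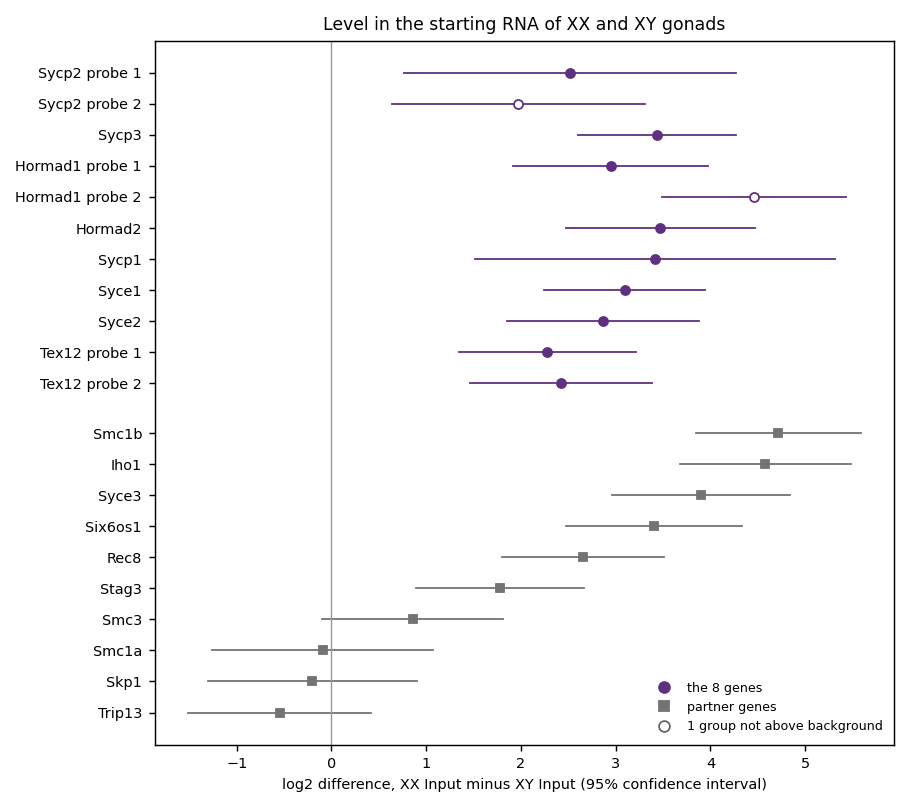
Log2 difference of XX Input minus XY Input for the 11 tested probes of the 8 genes (circles) and for 10 partner genes of the complex and the axis (squares). Lines are 95% confidence intervals of the limma fit, and open symbols have 1 group that was not above background. The 11 probes lie between 1.97 and 4.46, and the partners between -0.55 and 4.72.

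Cell type markers differed between these Inputs too. The pan-germ-cell gene Ddx4, which encodes an RNA helicase of the germ line, had a mean of 4.97 in XX Input and 5.16 in XY Input, a difference of -0.19 with an adjusted p of 0.85 (limma), and the receptor gene Kit had -0.37 with 0.70. Of 10 germ cell markers 7 were lower in XX and 0 higher, with a median difference of -3.37, the lowest measured ones being Dnd1 with -4.33 and Dppa3 with -4.19. Their summed level, in units of the array's 75th percentile, was 68.6 to 77.4 in XX Input and 197 to 227 in XY Input. The 7 Sertoli cell markers summed to 3.14 to 3.20 in XX Input, with 4 to 5 of them above background, and to 190 to 224 in XY Input. Pre-granulosa markers, 6 in number, summed to 89.4 to 90.9 in XX Input and to 12.8 to 13.7 in XY Input. Of these 6, 3 to 5 were above background in XX Input and 2 in XY Input. Most of the XX sum came from 1 gene, with a mean of 6.29 on the log2 scale. Leydig cell markers, 5 in number, summed to 2.55 to 3.67 in XX Input and to 77.6 to 82.5 in XY Input. The sums of these somatic markers thus followed the labelled sex, that of the pre-granulosa list mostly through 1 gene. The part of these shifts in the higher level of the synaptonemal complex genes was not tested.

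Since the genes moved together between the Inputs, the bases upstream of their RefSeq start sites were searched on both strands for 3 motifs. These were CACGTG, the E-box bound by dimers of MAX with MYC or MGA, TCCCGC, the core of E2F sites, and CNCCTCAG, which has been described at promoters occupied by STRA8. CACGTG lay within 250 bases upstream of a start site in 5 of the 8 genes, Hormad1, Syce2, Sycp1, Sycp3 and Tex12, and in 6.86% of 27025 genes. TCCCGC lay there in 4 of 8, Hormad1, Syce2, Sycp3 and Tex12, and in 18.8% of all. CNCCTCAG lay there in 2 of 8, Hormad2 and Syce2, and in 7.39% of all. Syce1 and Sycp2 held none of them in these windows. A match is a description of the letters, and whether a factor binds there was not measured. The last 120 bases before the start site are shown for 4 genes that held CACGTG, 2 of the axis, 1 of the transverse filament and 1 of the central element, with matches to the motifs in capitals, from RefSeq on GRCm38.p6. These coordinates are on another build than those of the probes.
Sycp3 (chr10:88459467-88459586, plus strand): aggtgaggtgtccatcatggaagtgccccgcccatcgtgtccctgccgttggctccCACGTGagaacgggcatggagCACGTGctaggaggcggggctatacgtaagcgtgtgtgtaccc
Hormad1 (chr3:95559557-95559676, plus strand): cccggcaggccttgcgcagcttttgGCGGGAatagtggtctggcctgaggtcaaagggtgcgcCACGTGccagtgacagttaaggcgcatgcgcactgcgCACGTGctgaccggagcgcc
Sycp1 (chr3:102936101-102936220, minus strand): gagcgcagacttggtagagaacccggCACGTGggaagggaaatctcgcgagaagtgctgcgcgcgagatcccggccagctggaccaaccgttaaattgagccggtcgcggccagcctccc
Tex12 (chr9:50561269-50561388, minus strand): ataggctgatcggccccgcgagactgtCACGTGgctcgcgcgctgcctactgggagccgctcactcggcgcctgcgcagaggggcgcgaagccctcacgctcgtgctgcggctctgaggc

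The second comparison asked which of the transcripts were recovered with DAZL in XX gonads. Transcripts of Tex12, Sycp3 and Syce2 were higher in the XX IP than in XX Input, Sycp1 was lower, and those of Syce1, Sycp2, Hormad1 and Hormad2 did not pass both limits, 4-fold and an adjusted p under 0.05. This was 4 probes higher and 1 lower of 11 tested. Of all tested probes, 14.1% were higher and 9.91% lower. The 4 higher probes were above background on all 4 XX arrays, as 8 of the 11 were. Of all 5567 probes with that property, 26.5% were higher and 7.15% lower, against 4 of 8 and 0 of 8 here. The median difference of the 11 probes was 0.95 on the log2 scale, beside 0.09 over all tested probes. The calls of higher probes depend on the scale: 0 of the 11 passed as higher in either sex with the 50th percentile in place of the 75th, where the median of all tested probes was -1.92 in XX, or with normexp background correction. Tex12 probe 1 then had 1.46 and 1.43 in XX, and Syce2 had -0.21 and -0.32 in XY. The median of the 11 probes in XX was -1.06 with the 50th percentile, still above that of all tested probes. With normexp it was -0.21, below the -0.0054 of all tested probes.

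Tex12 had the highest recovery of the 8 genes. Probe 1 had 5.08 and 5.24 in XX Input and 8.23 and 9.03 in XX IP. Both IP arrays lay above both Inputs, and the difference was 3.47 ± 0.43 (SE), or 11.1-fold (limma, adjusted p = 0.00014). Probe 2 had 3.88 and 4.15 in XX Input and 7.09 and 7.91 in XX IP, a difference of 3.49 ± 0.44 (SE) or 11.2-fold. These differences were above those of 96.9% and 97.0% of all tested probes.

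Syce2, the central element gene whose protein pairs with TEX12, had 6.58 and 6.86 in XX Input and 8.84 and 9.55 in XX IP. The difference was 2.47 ± 0.46 (SE), or 5.55-fold (limma, adjusted p = 0.0013), above 90.6% of tested probes. Syce1, of the same element, went with neither. Its signals were 5.16 and 5.05 in XX Input and 4.41 and 4.75 in XX IP, and the difference of -0.53 had a 95% confidence interval from -1.38 to 0.32 and an adjusted p of 0.28 (limma). The upper end of that interval lies below the lower ends for Syce2, 1.46, and Tex12 probe 1, 2.54. Syce1 stood above 36.6% of tested probes.

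Sycp3 had 4.38 and 4.44 in XX Input and 7.26 and 7.05 in XX IP, with no overlap. The difference was 2.75 ± 0.38 (SE), or 6.70-fold (limma, adjusted p = 0.00024), above 92.7% of tested probes. Its partner Sycp2 did not pass. Probe 1 of Sycp2 had 1.47 and 1.12 in XX Input against 1.48 and -1.85 in XX IP, where the second array was not above background, so the IP replicates themselves differed by more than the groups. Probe 2 of Sycp2 was above background on both XX Inputs and on neither XX IP.

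Hormad1 and Hormad2 had small positive differences that did not pass. Hormad1 probe 1 had 2.36 and 2.32 in XX Input and 3.62 and 2.96 in XX IP, a difference of 0.95 ± 0.47 (SE, adjusted p = 0.11 in limma). Hormad1 probe 2 had 0.78 and 0.95 against 2.23 and 1.64, a difference of 1.07 ± 0.44 (SE, adjusted p = 0.065 in limma). Hormad2 had 1.52 and 1.34 against 1.77 and 2.43, a difference of 0.67 ± 0.46 (SE, adjusted p = 0.24 in limma). In each case both IP arrays lay above both Inputs, by less than the 4-fold limit. With normexp background correction the 3 differences turned negative, with -0.72, -0.21 and -0.52, so their direction depends on the processing.

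Sycp1 had 3.89 and 3.58 in XX Input and 3.17 and -0.56 in XX IP, and the lower IP array was not above background. The mean difference of -2.43 ± 0.87 (SE) passed (limma, adjusted p = 0.037). It rests on XX IP replicate 2: without that array the difference was -0.57 with an adjusted p of 0.34 (limma).

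The same comparison in XY gonads again gave calls for Tex12 and Sycp3, at lower signals. Of the 11 probes tested, 4 were higher in the XY IP than in XY Input and 0 lower, beside 10.2% higher and 7.68% lower of all tested probes. At an unadjusted p under 0.05 with no fold limit, 6 of the 11 were higher and 1, that of Syce1, lower (limma), where 9084 of the 18263 tested probes met that rule in either direction. Above background on all 4 XY arrays were 4 of the 11 probes, and 3 of them were higher and 0 lower, beside 19.5% and 5.82% of the 5480 such probes. On 5 of the 11 probes neither XY IP array was above background. The median difference of the 11 probes was 1.65 on the log2 scale, beside -0.03 over all tested probes. That median has probes at background in it and is no measure of recovery. With a common floor for all arrays it was 0, as over all tested probes. With 1 probe of each gene the medians were 0.68 in XY and 0.81 in XX.

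Tex12 probe 1 had 2.78 and 2.99 in XY Input and 6.08 and 6.70 in XY IP, a difference of 3.51 ± 0.43 (SE) or 11.4-fold (limma, adjusted p = 0.00016). Probe 2 had 1.34 and 1.84 in XY Input and 4.96 and 5.58 in XY IP, a difference of 3.68 ± 0.44 (SE) or 12.8-fold. Sycp3 had 0.95 and 1.00 in XY Input and 3.56 and 3.16 in XY IP, a difference of 2.39 ± 0.38 (SE) or 5.23-fold (limma, adjusted p = 0.00075). For both genes the IP arrays lay well above the Inputs, although their Input level in XY gonads was the lower of the 2 sexes.

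Syce2 had 3.83 and 3.88 in XY Input and 4.94 and 6.07 in XY IP. Both IP arrays lay above the Inputs, but the difference of 1.65 ± 0.46 (SE) was 3.14-fold and so under the 4-fold limit (limma, adjusted p = 0.015). Without XY IP replicate 1, the lower array, it was 2.22 and passed (limma, adjusted p = 0.0048). Syce1 had 2.04 and 1.98 in XY Input and 0.51 and 0.94 in XY IP, with 1 IP array above background, and its difference of -1.29 ± 0.39 (SE) had an adjusted p of 0.02 (limma) at 2.44-fold.

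The fourth call in XY was probe 2 of Sycp2, and it was not well measured. The probe was at background on both XY Inputs and on XY IP replicate 1, with -0.83 there, and above background on XY IP replicate 2, with 1.29. The scanner signals behind these IP values were 3.85 and 32.1. The fitted difference was 3.21 ± 0.61 (SE, adjusted p = 0.002 in limma). With a common floor for all arrays it was 0.13 and did not pass, so no size of a rise is given. Probe 1 of Sycp2, with -1.14 and -1.31 in XY Input, was at background on both XY IPs, so the probes of this gene did not move together.

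The other genes could not be followed in the XY IP. Sycp1, Hormad2 and Hormad1 probe 1 were above background on both XY Inputs and on neither XY IP array, and Hormad1 probe 2 was at background on all 4 XY arrays. Their fitted differences, from -1.87 for Sycp1 to 1.99 for Hormad1 probe 2, have the IP background in them and are no measure of recovery.

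**Figure D3:**
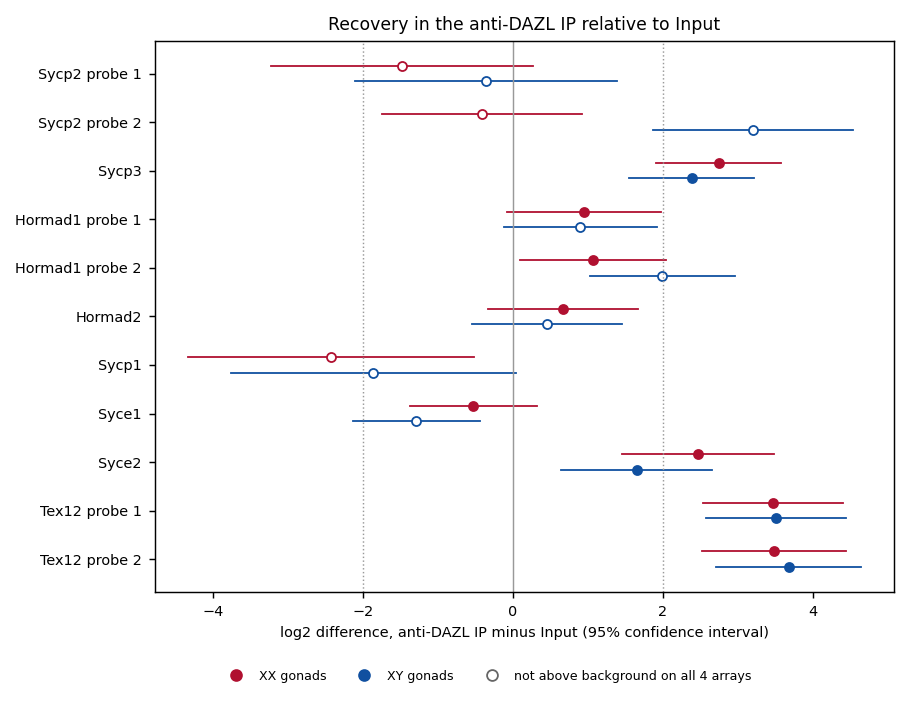
Log2 difference of anti-DAZL IP minus Input for the 11 tested probes in XX gonads (red) and XY gonads (blue), with 95% confidence intervals of the limma fit. Dotted lines mark the 4-fold limit, and open circles have at least 1 of their 4 arrays not above background. Tex12, Sycp3 and Syce2 lie to the right in both sexes, between 1.65 and 3.68, and Sycp1 and Syce1 to the left.

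Tex12, Sycp3 and Syce2 were the genes above background on every array of both sexes. Tex12 had the highest fitted difference in both sexes. Sycp3 came before Syce2 in both, but their order turned without XX IP replicate 1, with 2.64 and 2.82, and without XY IP replicate 1, with 2.19 and 2.22. With all 8 arrays the confidence intervals of Tex12 probe 1, Sycp3 and Syce2 overlapped in each sex. In XY the interval of Tex12 probe 2, from 2.72 to 4.64, lay above that of Syce2, from 0.64 to 2.66, and the difference between genes was not tested. For the other genes an order of recovery in XY was not measured.

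The third comparison asked whether recovery itself differed between XX and XY gonads, as the difference of the 2 IP versus Input contrasts. Of the 11 probes 0 were higher in XX and 1 was lower, beside 2.18% and 1.12% of all tested probes, by an adjusted p under 0.05 with no fold limit. At an unadjusted p under 0.05 (limma) the count was the same, where 2999 of the 18263 tested probes met that rule in either direction. The called probe was probe 2 of Sycp2, with -3.61 ± 0.87 (SE, adjusted p = 0.043 in limma), which was above background on 0 of 2 XX IP arrays and on 1 of 2 XY IP arrays. Without that array, XY IP replicate 2, the difference was -2.55 between values at background in the XY IP and XY Input, so it is no measure of recovery.

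For Tex12, Sycp3 and Syce2, measured on all 8 arrays, the difference was not detectable with 2 arrays a group, and the intervals say how large it could have been. For Tex12 probe 1 it was -0.04 with a 95% confidence interval from -1.36 to 1.28. For Sycp3 it was 0.36, from -0.82 to 1.54. For Syce2 it was 0.82, from -0.61 to 2.26. The same 3 probes were higher in XX Input by 2.28 to 3.44, while their recovery differed by -0.04 to 0.82. Syce1, which was above background on 1 of the 2 XY IP arrays, had 0.76, from -0.44 to 1.96.

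Other genes of the pathway were taken from fixed lists, and their counts are read beside the shares over all tested probes given above. Of 12 further proteins of the synaptonemal complex and the axis, including cohesins, 10 were tested. In the Inputs 6 were higher in XX and 0 lower, beside 5.87% and 6.1% of all tested probes, with a median difference of 2.22. The highest were the meiotic cohesin gene Smc1b, with 4.72, and Iho1, a HORMAD1 partner that promotes DNA breaks, with 4.58. The lowest were Trip13, an ATPase that removes HORMADs from axes, with -0.55, and Skp1, with -0.20, and neither passed. In the XX IP 2 of the 10 were higher and 0 lower, beside 14.1% and 9.91% of all tested probes, with a median of -0.76. These were Six6os1, a central element gene, with 3.91 (adjusted p = 8.9e-05 in limma), and Iho1, with 3.13. At the other end, the cohesin genes Stag3 and Smc1a had -1.83 and -1.82, under the 4-fold limit. In the XY IP 1 was higher and 0 lower, beside 10.2% and 7.68%, and it was again Six6os1, with 3.22 (adjusted p = 0.00026 in limma), followed by Skp1 with 0.83. The lowest measured ones there were Stag3 with -1.81 and Smc3 with -0.46. Six6os1 was above background on all 8 arrays and was 3.40 higher in XX Input. Of the central element genes, Six6os1, Tex12 and Syce2 were thus high in the XX IP, and Syce1 and Syce3, the remaining ones and named after their values were seen, had -0.53 and -1.74, the latter with 1 of its 2 XX IP arrays at background.

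Meiotic recombination genes were mostly tested as well, 17 of 21. In the Inputs 9 were higher in XX and 0 lower (5.87% and 6.1% of all tested probes). Of these 9, 4 were above background on all 4 Inputs, and the others entered the test through their XX arrays. The highest were Meiob with 5.80, which encodes a single-stranded DNA binding protein, and Mei1 with 5.38. The lowest measured ones, Mnd1 with -0.91 and Psmc3ip with 0.16, did not pass. In the XX IP 1 was higher and 2 lower (14.1% and 9.91% of all tested probes), and the higher one was Ccnb1ip1, a crossover ligase, with 5.38. The next measured gene was Spo11 with 1.72, and the lowest were Rec114 with -1.50 and Brca2 with -1.43, and none of these 3 passed. In the XY IP 6 were higher and 2 lower (10.2% and 7.68%), but 1 of these 6, Ccnb1ip1 with 4.26, was above background on all 4 XY arrays. Of 5 genes that tie telomeres to the nuclear envelope, 4 were higher in XX Input (5.87% of all tested probes). Of these 4, 0 were above background on all 4 Inputs, and the filter let them in through their XX arrays. In the XX IP 1, Terb2 with 3.90, was higher (14.1% of all tested probes). In the XY IP 4 passed as higher (10.2% of all tested probes), and in the sex difference 3 as lower (1.12%). Of these, 0 were above background on all arrays compared. The gene measured on all of them, Sun1, had 1.91 in XX and 1.05 in XY. The 3 meiotic entry genes tested, Stra8, Meioc and Ythdc2, were all higher in XX Input (5.87% of all tested probes), with a median of 5.47. Stra8 and Meioc were above background on all 4 Inputs, and Ythdc2 on 1 of the 2 XY Inputs. In the XX IP, Meioc had 3.65 and Stra8 2.11, and both passed. In the XY IP 1 of the 3 passed, Stra8 with 2.86, which was above background on all 4 XY arrays, and Meioc had 1.28 with both XY IP arrays at background.

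The profile of the 8 genes over the 8 arrays, taken as the mean of 1 centred probe of each, was 1.18 and 1.12 for XX Input and 2.22 and 1.54 for XX IP. On XX IP replicate 2, the lower of these, the probes of Sycp1 and Sycp2 were at background. In XY the Inputs stood at -1.87 and -1.84, and the IPs at -1.04 and -1.32, where 5 and 4 of the 8 probes averaged were at background. Hormad1 followed the mean of the others most closely, with r = 0.981 over 8 arrays, and Hormad2 had 0.962. Sycp3, Syce2 and Syce1 had 0.887, 0.867 and 0.821. Sycp2, Tex12 and Sycp1 had 0.596, 0.592 and 0.533. Among 12166 named genes, ranks 2 to 10 by likeness to the mean profile were held by Usp9x (r = 0.990), Strbp (0.986), Fhl4 (0.980), Pcdh17 (0.980), Eml5 (0.975), Meiob (0.975), Meioc (0.974), Baz1a (0.974) and Arfgef1 (0.972). These correlations rest on 4 groups of 2 arrays, and the size of the changes differs: the XX minus XY difference in Input was 5.80 for Meiob, and 1.24 for Usp9x and 1.07 for Arfgef1. Except for Strbp and Baz1a, these genes were not above background on either XY IP array.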

How the data were processed

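RNA from 8 samples was hybridized as Cy3-labelled cRNA to 1-colour Agilent whole mouse genome arrays, with 50 ng of Input RNA or 1 ng of IP RNA labelled. The deposited scanner files hold the processed signal intensity of each spot, background-subtracted by Feature Extraction (version 9.5.3.1 in the headers, 9.5 in the submitters' processing notes) and not normalized between arrays, with the mean intensity and local background beside it. A further deposited table gives log2 values that the authors made by raising values under 1 to 1 and scaling to the 75th percentile. It served as an alternative.

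Outlier spots were left out, intensities under 1 were set to 1, spots of a probe were averaged, and log2 values were taken relative to the 75th percentile of each array. Of 41174 probes 73 were dropped, and 0 were saturated. Names came from RefSeq GRCm38.p6, by accession for 23323 probes, by symbol for 6730 and by older symbol for 2913. Positions are those of the files on mm8, for which no annotation was used here, so exons are not given.

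Groups came from the labels. A limma 3.58.1 model (R 4.3.3) with 1 mean per group was fitted to all 8 arrays, with 4 residual and 7.82 prior degrees of freedom, and two-sided p-values were adjusted by Benjamini-Hochberg over 18263 probes. IP calls also needed a 4-fold change, the fold limit of the study, which named no test. Where 1 group was not above background, "at least" folds use the lowest signal well above background on each array. The number of arrays, 2 a group, limits the precision. The procedure was tested on simulated data. The probe of a gene with the highest mean leads, all probes of the 8 genes are described, and up to 4 examples are named from a list, the 2 highest and 2 lowest differences among measured genes, with somatic lists given by counts and sums. Genes and lists were chosen with earlier results of these data known. Alternatives were other scalings, background corrections, filters, fits and left-out arrays. Among the genes that these rules name, 2 are not reported here.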

Additional observations from a re-analysis of the deposited data

Results flagged for a closer look

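The IP versus Input difference of Sycp2 (chr2:178308931-178310295) differed between the sexes by test, with -3.61 for XX minus XY (limma, adjusted p = 0.043). The adjusted p was between 4.9e-05, with a replicate block, and 0.94, with a common floor, over all other settings, and it was above 0.05 in 12 of them. Of the 4 IP arrays 1, XY IP replicate 2, was above background for this probe, and with the IP arrays left out in turn the difference was between -4.67 and -2.55. No other probe of the 8 genes met a rule for a closer look.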

How the results depend on the processing

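Under the 50th percentile as the scale, the median of all tested probes moved to -1.92 in XX and -1.90 in XY, 0 probes of the 8 genes were higher in either IP, and 4 were lower in XX and 3 in XY. In XX, Tex12 then had 1.46 and 1.48, Sycp3 0.74 and Syce2 0.47, each still above the median by as much as before. In the Inputs 5 probes were higher in XX instead of 9. In the sex difference of recovery 0 probes were lower instead of 1, although Sycp2 had -3.76 against -3.61. Over all tested probes 189 were then higher and 8643 lower in the XX IP, against 2566 and 1810. With normexp background correction (offset 50) 0 probes were higher in either IP, whether or not outlying local backgrounds were replaced, 2 were lower in XX, and 0 differed between the sexes, with Tex12 at 1.43 and Sycp3 at 0.51 in XX. The calls of Sycp1 in XX (0 lower) and of Sycp2 in the sex difference (0 lower) were also lost when scaled to probes above background on all 8 arrays, under quantile normalization, under a common floor and with only probes above background on all 8 arrays. Under the last 2 settings, 4 probes were higher in XX Input. The stricter filter left 4 of the 11 probes, and under the floor Tex12 probe 2, which is not dim, lost its call at an unchanged 2.42. Both differences were as large as before under the first 2 of these settings, with -2.85 and -2.55 for Sycp1 and -3.71 and -4.18 for Sycp2. Under the common floor they were -1.64 and -0.13. With no filter on dim probes Sycp2 lost its call (0 lower) at an unchanged -3.61, with 41101 probes in the fit and the adjustment. The other causes were not tested. Leaving out 1 array gave 0 to 2 probes lower in XX and 0 to 1 lower in the sex difference. With 1 array left out, the counts of higher probes stayed within 1.5 times in all comparisons.

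The replicate numbers were not established as pairs. Deviations of same-numbered arrays correlated with r = 0.057 in XX and 0.149 in XY, and with r = 0.447 between the Inputs of the sexes. With a replicate block, 4 and 4 probes were higher in the XX and XY IP, as without it, and over all probes the calls of a sex difference rose from 398 and 204 to 961 and 510. Of 665 single-probe values under other settings 0 passed in the opposite direction, 59 of those that had passed no longer did, and 16 passed that had not. Of those passing neither way, 54 changed sign. With signal near background on the IP arrays, Hormad1, Hormad2, Sycp1 and Sycp2 cannot be followed in the XY IP.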

Other observations

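Recovery with DAZL was also counted over marker lists of other cell types. Of 10 germ cell markers, 7 were above background on all 4 XX arrays and 8 on all 4 XY arrays. Of these, 5 of 7 passed as higher in XX and 4 of 8 in XY, beside 26.5% and 19.5% of all probes measured in that way. The highest in XX were the receptor gene Kit with 2.89 and Dppa3 with 2.51, and in XY the Tudor domain gene Tdrd5 with 3.41 and Kit with 3.12. The lowest in XX were Mael with -0.59 and Ddx4 with 1.91, and in XY Mael with -0.92 and Dnd1 with 0.54. The lists for Sertoli, pre-granulosa, Leydig, endothelial, erythroid and mesonephric cells held 3 genes so measured in XX and 7 in XY. None of these 3 and 7 passed as higher, and numbers this small allow no comparison with the germ cell markers.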
